A study of Homo sapiens with 34 samples.

Results

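The sites described here are the genomic positions at which RBPJ and SOX2 were found together, and those at which 1 of them was found without the other, in MB157R iEV cells. Each member is the summit of a called ChIP-seq peak, and a summit was called co-bound when a summit of the other factor lay under 500 bp away. Of 46601 RBPJ summits, 21610 were co-bound and 24991 were RBPJ-only. Of 37963 SOX2 summits, 21631 were co-bound and 16332 were SOX2-only. These 84564 summits come from 290228 in the 8 peak lists of the series.

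MB157 is a triple-negative breast cancer line whose growth depends on NOTCH1 lacking most of its extracellular part, and MB157R is its derivative selected for 25 weeks in 1 µM of a gamma-secretase inhibitor (GSI), the drug class that blocks the release of the NOTCH intracellular domain. MB157R cells carried a doxycycline-inducible empty vector (iEV) or inducible NOTCH1 intracellular domain (iN1-ICD), and parental MB157 cells carried the empty vector or inducible HA-tagged SOX2 (iSOX2). All arms received doxycycline at 1 µg/ml for 72 h, the empty-vector arms included. The comparisons used RBPJ in all 4 arms, SOX2 in both MB157R arms, HA in MB157 iSOX2, and HA in MB157 iEV, where no tagged protein is made, as the antibody control. Each list was called from the merged libraries of its group (3, or 1 for the HA control), so no spread between replicates could be computed, and the intervals below are 95% intervals that cover counting error only. All sites come from 1 cell line, and neighbouring sites share their genomic surroundings, so sites are not replicates of a condition.

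RBPJ is the DNA-binding factor of the NOTCH pathway. Without NOTCH signal it can hold co-repressors on DNA, and when the NOTCH intracellular domain arrives it forms, with a Mastermind protein, a complex that activates target genes such as HES1 and NRARP. SOX2 is an HMG-box transcription factor that binds in the minor groove, can bind DNA wrapped in nucleosomes, and is known for its part in stem cells and in the cells of several epithelia. AP-1, a dimer of JUN and FOS proteins, is a common occupant of enhancers in epithelial and mesenchymal cells.

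The following sequences, read from hg38 on the plus strand from 5′ to 3′, show what the classes look like on DNA. Capitals mark matches on either strand to an RBPJ motif (CGTGGGAA, TGTGGGAA, CGTGAGAA or TGTGAGAA) or to a SOX motif (CAAAG or CAATG, directly preceded by AA, AT, TA or TT). The first 3 are co-bound sites that held both motifs and were among the highest in the smaller of their folds, the next 4 are at the NOTCH pathway genes NOTCH1, NRARP and HES1, and the last 3 are single sites of high fold for comparison.
VGLL4 co-bound site (chr3:11764968-11765128): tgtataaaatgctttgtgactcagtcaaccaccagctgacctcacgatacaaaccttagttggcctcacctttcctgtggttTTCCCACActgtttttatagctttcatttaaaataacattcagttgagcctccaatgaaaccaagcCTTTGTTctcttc
FOXJ1 co-bound site (chr17:76132626-76132814): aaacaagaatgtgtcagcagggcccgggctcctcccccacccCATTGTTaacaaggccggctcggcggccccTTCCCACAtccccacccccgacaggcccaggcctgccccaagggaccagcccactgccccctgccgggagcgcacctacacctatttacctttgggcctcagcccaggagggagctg
ZNF217 co-bound site (chr20:53643059-53643248): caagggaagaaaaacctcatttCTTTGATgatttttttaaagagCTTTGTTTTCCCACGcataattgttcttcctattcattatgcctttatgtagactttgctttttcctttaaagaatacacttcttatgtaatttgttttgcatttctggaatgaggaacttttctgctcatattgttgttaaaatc
NOTCH1 intron site (chr9:136544550-136544738): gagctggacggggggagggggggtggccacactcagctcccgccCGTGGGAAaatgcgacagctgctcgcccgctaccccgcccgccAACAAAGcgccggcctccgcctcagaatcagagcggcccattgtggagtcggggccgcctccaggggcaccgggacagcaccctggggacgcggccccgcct
NOTCH1 upstream site (chr9:136546293-136546453): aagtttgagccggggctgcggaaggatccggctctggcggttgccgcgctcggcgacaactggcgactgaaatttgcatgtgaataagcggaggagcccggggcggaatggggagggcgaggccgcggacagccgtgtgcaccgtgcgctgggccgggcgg
NRARP upstream site (chr9:137311570-137311690): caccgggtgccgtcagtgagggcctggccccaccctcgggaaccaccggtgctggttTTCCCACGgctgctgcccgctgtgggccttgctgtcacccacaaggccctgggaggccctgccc
HES1 promoter (chr3:194135898-194136147): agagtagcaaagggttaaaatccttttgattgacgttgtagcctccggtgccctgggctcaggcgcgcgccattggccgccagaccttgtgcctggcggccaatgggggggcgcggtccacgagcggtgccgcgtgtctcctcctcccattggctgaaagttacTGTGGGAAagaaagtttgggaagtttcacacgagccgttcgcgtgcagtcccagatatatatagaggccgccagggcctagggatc
ZNF155 RBPJ-only site (chr19:43984035-43984155): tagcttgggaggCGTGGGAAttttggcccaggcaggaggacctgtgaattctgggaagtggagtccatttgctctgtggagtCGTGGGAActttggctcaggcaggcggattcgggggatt
BUB1 SOX2-only site (chr2:110688955-110689075): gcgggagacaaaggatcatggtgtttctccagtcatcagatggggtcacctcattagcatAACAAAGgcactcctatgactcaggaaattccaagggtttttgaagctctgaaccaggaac
NRARP SOX2-only site (chr9:137302257-137302377): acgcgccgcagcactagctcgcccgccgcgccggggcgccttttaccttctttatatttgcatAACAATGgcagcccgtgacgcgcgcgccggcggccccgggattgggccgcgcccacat

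At the VGLL4 and ZNF217 sites the RBPJ motif covered or adjoined the RBPJ summit. In the ZNF217 sequence a SOX motif ended on the base before the RBPJ motif began. The NOTCH1 intron site held both motifs, whereas the NOTCH1 upstream site, where the summits were 13 bp apart, held neither of them. It reaches into an exon of the long non-coding RNA NALT1. The NRARP upstream window is centred on the RBPJ summit, and the SOX2 summit lay 315 bp away. The HES1 promoter sequence, the 250 bases before the start, carries 1 RBPJ motif and was covered by both the RBPJ and the SOX2 peak. The ZNF155 site carried 2 RBPJ motifs in the same direction, and its nearest SOX2 summit lay 32976 bp away. The BUB1 site held a SOX motif at its SOX2 summit and lay 11021 bp from the nearest RBPJ summit.

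The first question was how close the factors lay to each other. Co-occupancy was nearly always one to one: 99.5% of co-bound RBPJ summits and 99.6% of co-bound SOX2 summits had 1 partner, and 117 and 96 had 2. Mutual nearest neighbours formed 21523 pairs with a median distance of 89 bp (quartiles 39 and 174 bp). Summits lay within 50 bp of each other in 31.2% of pairs (30.6 to 31.8) and within 100 bp in 54.6% (53.9 to 55.2). In 99.0% of co-bound RBPJ sites the called regions overlapped as well. The number of RBPJ summits per bp of distance was 139 to 142 within 25 bp, 67.4 at 100 to 150 bp and 7.96 at 450 to 500 bp. It went on falling past the limit of the rule, to 6.15 at 500 to 600 bp and 0.240 at 10 to 50 kb. Summits just inside the limit resembled those just outside it: RBPJ folds had a median of 5.67 at 450 to 500 bp and 5.54 at 500 to 600 bp, and SOX2 folds 5.02 and 4.70.

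**Figure D1:**
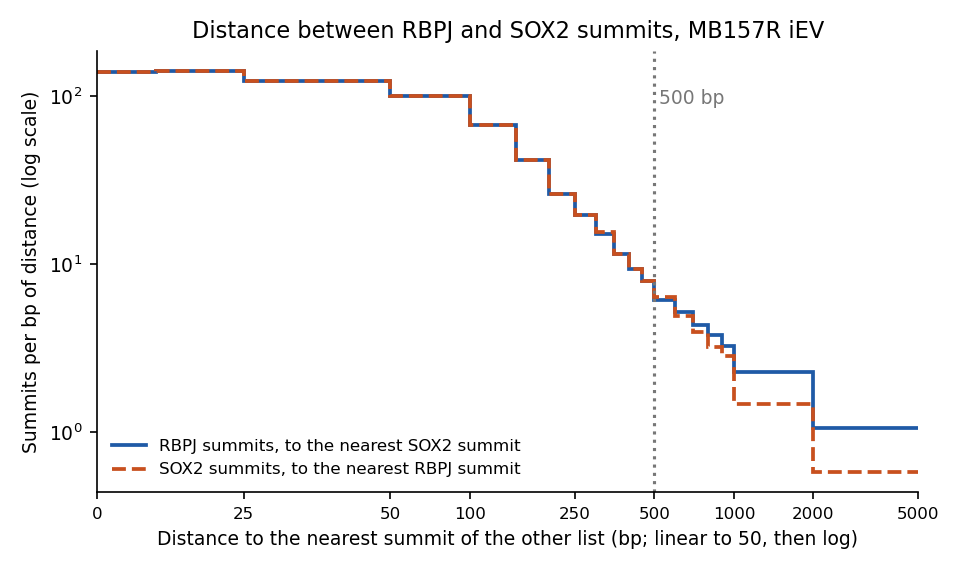
Number of summits per bp of distance (log scale) against the distance to the nearest summit of the other list in bp (linear to 50, then log), for RBPJ (solid) and SOX2 (dashed) summits of MB157R iEV. The density was 139 to 142 summits per bp within 25 bp and 7.96 for RBPJ summits at 450 to 500 bp, with no step at the 500 bp limit (dotted).

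A summit is 1 point of a region that may be wide, and this matters for the single classes. A peak of the other factor overlapped 1500 RBPJ-only sites (6.002%) and 2172 SOX2-only sites (13.3%) although its summit was 500 bp or more away. LFNG, which codes for a glycosyltransferase that modifies NOTCH receptors, is an example: a SOX2 summit of fold 31.8 lay in its intron 1, inside the wide RBPJ peak there, but 2689 bp from the RBPJ summit of fold 30.3, which was itself paired with a weaker SOX2 summit of fold 3.01. By contrast, 69.1% of RBPJ-only and 67.4% of SOX2-only summits had no summit of the other factor within 5 kb.

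Pairs at promoters, here within 1 kb of the start (TSS) of a protein-coding gene, were wider apart than distal pairs, with medians of 122 bp and 85 bp. Of pairs 250 bp or more apart, 25.1% (23.6 to 26.7) were at promoters, against 11.3% (10.5 to 12.1) of pairs under 50 bp apart. Along the direction of the gene, the SOX2 summit was upstream of the RBPJ summit in 54.2% of promoter pairs (52.5 to 56.0) and in 50.6% of distal pairs within 50 kb of a gene (49.6 to 51.6). Among the 6 strongest pairs at most 5 bp apart, only that at JUP was at a promoter, where 14.6% of all pairs lay. Near DUSP6, which codes for a phosphatase of ERK, the summits coincided (0 bp) 18.4 kb upstream at chr12:89370589-89371434, with a fold of 31.5 for RBPJ and 14.5 for SOX2. Near TRIB2, a pseudokinase gene, they were 1 bp apart 13.9 kb upstream (folds 16.7 and 11.4). JUP, which codes for the junction protein plakoglobin, had a pair 2 bp apart 0.831 kb into the gene (folds 13.2 and 11.3), and NECTIN4, an adhesion molecule gene, had one 2 bp apart in its intron 1 (folds 15.2 and 11.03).

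Fold here is the deposited ratio of fragments at a summit to those expected from input nearby. Because calling depends on it, it is given as a description. Co-bound RBPJ summits had a median fold of 5.67 against 4.82 for RBPJ-only, and co-bound SOX2 summits 5.74 against 4.85 for SOX2-only. With RBPJ summits split by fold into 10 equal bins, 61.2% of the highest bin and 30.5% of the lowest were co-bound. For SOX2 the shares were 78.3% and 47.1%. The median number of fragments at the summit was 20 at co-bound RBPJ sites and 16 at RBPJ-only sites, and 22 and 17 for SOX2, over median backgrounds of 2.33 to 2.78 fragments. Whether a weak partner went uncalled at this depth was not tested.

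Within co-bound pairs, the folds of both factors were nearly unrelated (Spearman's rho 0.0718 and Pearson's r of log2 folds 0.0857 over 21523 pairs, given as a description, since the points share both pooled lists). The RBPJ fold was at least 2 times the SOX2 fold in 2591 pairs (12.0%), and the SOX2 fold at least 2 times the RBPJ fold in 2864 (13.3%). These groups of pairs differed in where they lay and what they held. Promoters made up 38.1% (36.3 to 40.03) of the RBPJ-high pairs, 12.9% (12.4 to 13.5) of pairs with folds within 2 times, and 2.65% (2.10 to 3.31) of the SOX2-high pairs. The RBPJ motif was in 19.8%, 8.05% and 4.16% of them and the SOX motif in 17.02%, 34.7% and 56.3%. The AP-1 motif (TGACTCA or TGAGTCA) was in 23.6%, 37.7% and 46.0%. Median GC content within 100 bp of the RBPJ summit was 61.2%, 50.2% and 44.3% in the same order. Because folds were used to form these groups, the motif shares and the shares called in other lists show what goes with fold. They are no test of co-occupancy.

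**Figure D2:**
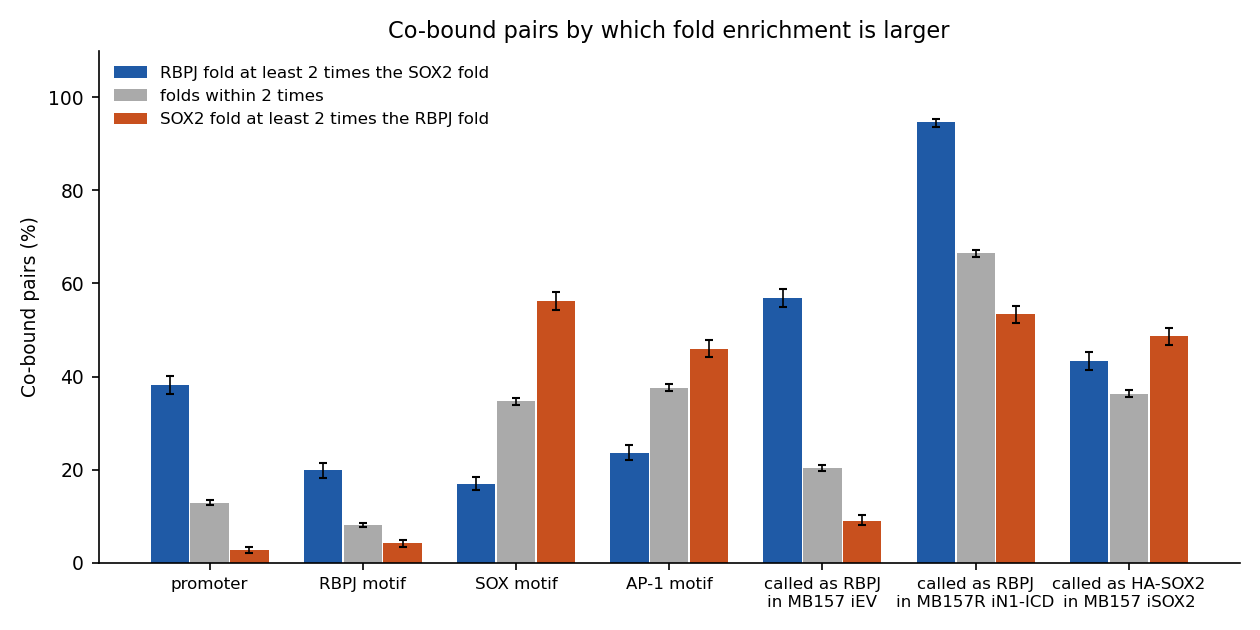
Share of co-bound pairs (%) with each feature, for 2591 pairs with an RBPJ fold at least 2 times the SOX2 fold, 16068 with folds within 2 times, and 2864 with a SOX2 fold at least 2 times the RBPJ fold. Bars are shares and lines their 95% binomial intervals; the promoter share was 38.1%, 12.9% and 2.65% and the share called as RBPJ in MB157 iEV 56.9%, 20.3% and 9.08%.

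The next question was where the classes lay. Co-bound sites took an intermediate position: RBPJ-only sites were rich in promoters, and SOX2-only sites lay farthest from a TSS (median 64320.5 bp). SOX2-only sites were not farther from gene bodies as such, with 38.1% in introns against 35.2% of co-bound SOX2 summits. Promoters held 14.6% of co-bound RBPJ summits (14.2 to 15.1) against 31.2% of RBPJ-only summits (30.6 to 31.7), an odds ratio of 0.379 (0.361 to 0.396). Among SOX2 summits they held 14.6% of the co-bound (14.1 to 15.04) against 5.16% of SOX2-only summits (4.82 to 5.51), an odds ratio of 3.14 (2.90 to 3.39). Both differences were past the threshold in Fisher's exact test. With summits compared within 5 bins of fold, the odds ratios were 0.287 and 3.94. The second rested on how single sites were defined. It was 1.17 (1.09 to 1.25) with co-bound taken as under 100 bp, 2.08 with promoters taken as within 5 kb, and 9.85 when SOX2-only sites overlapped by an RBPJ peak were left out. The first was 0.217 with both lists restricted to −log10 q values of 5 or more.

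Read in the other direction, a SOX2 summit within 250 bp of a TSS was co-bound in 86.2% of cases (84.7 to 87.6), a share that fell to 46.6% (45.7 to 47.5) over 100 kb away. For RBPJ summits the share was 33.0% (31.8 to 34.2) within 250 bp, lowest at 0.5 to 1 kb with 20.8% (19.3 to 22.4), and 65.0% (64.0 to 66.0) over 100 kb away. The median distance to the nearest TSS was 34288 bp for co-bound RBPJ summits and 7708 bp for RBPJ-only summits. Taking all co-bound RBPJ summits as the base, 34.97% were in non-promoter introns of canonical transcripts and 7.02% elsewhere within a protein-coding gene. Another 41.5% were between genes and only 0.685% in coding exons, also outside promoters. By chromosome the co-bound share of RBPJ summits ranged from 28.7% on chromosome 19 to 52.6% on chromosome 18, and that of SOX2 summits from 40.5% on chromosome 4 to 72.7% on chromosome 19, where 36.2% of RBPJ summits were at promoters.

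**Figure D3:**
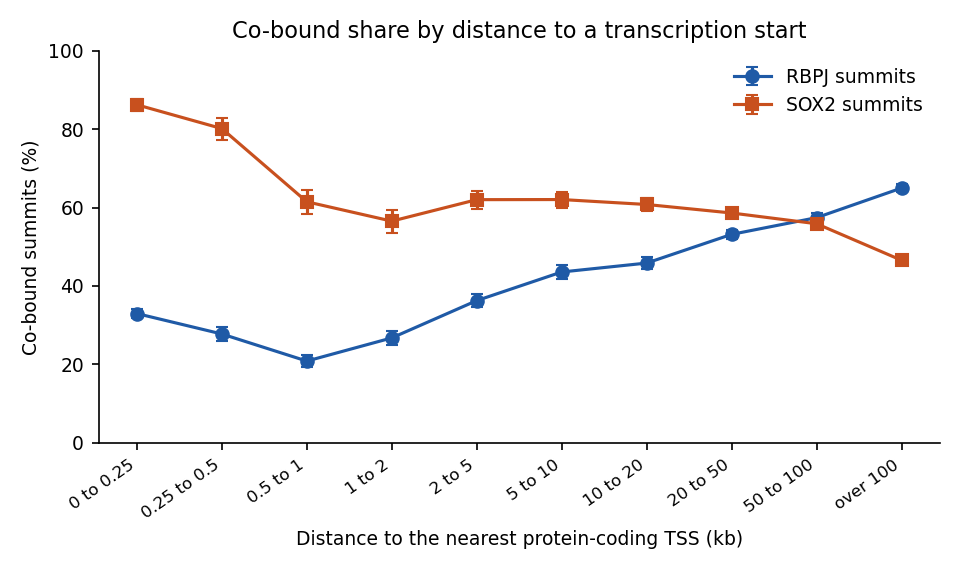
Share of RBPJ (circles) and SOX2 (squares) summits that were co-bound (%) by distance to the nearest protein-coding TSS in kb, with 95% binomial intervals. The share ran from 86.2% down to 46.6% for SOX2 and from 33.0% through 20.8% up to 65.0% for RBPJ.

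Base content followed the same order. The median GC content of the 201 bp around the summit was 59.7% at RBPJ-only sites, 50.2% at co-bound RBPJ sites, 48.8% at co-bound SOX2 sites and 41.8% at SOX2-only sites. Among distal sites it was 56.2%, 48.8%, 47.3% and 41.3%. Motif shares below should be read with this, since a motif of A and T is met more often in AT-rich DNA. For that reason the share of all 201 bp windows of the genome that hold the motif and, for RBPJ and SOX, the same letters in reversed order are given.

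Neither factor's own motif was more frequent where it met the other. The RBPJ motif lay within 100 bp of 8.00% of co-bound RBPJ summits (7.64 to 8.37) and of 10.6% of RBPJ-only summits, an odds ratio of 0.733 (0.688 to 0.781), against 2.81% of genome windows and 2.41% of promoter windows of 201 bp. The SOX motif was within 100 bp of 30.2% of co-bound SOX2 summits (29.6 to 30.8) and 39.8% of SOX2-only summits (39.0 to 40.5), an odds ratio of 0.655 (0.627 to 0.683), against 27.4% of genome windows. A longer form (AACAAAGG, AACAATGG, GACAAAGG or GACAATGG, of which AACAAAGG and AACAATGG overlap the SOX motif) was at 9.55% and 12.2%, against 3.48% of genome windows. The reversed SOX letters, at 19.0% and 25.3%, differed in the same direction, whereas the reversed RBPJ letters, at 2.68% of co-bound and 2.11% of RBPJ-only RBPJ summits, differed in the opposite direction to the RBPJ motif. At distal sites alone the RBPJ motif was at 8.27% and 12.0% and the SOX motif at 32.1% and 40.4%. At promoters the RBPJ motif was at 6.42% of co-bound and 7.47% of RBPJ-only summits, with an odds ratio of 0.850 whose interval (0.720 to 1.00) reached 1, and of 0.558 (0.470 to 0.662) within bins of fold.

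The AP-1 motif was more frequent at co-bound than at RBPJ-only sites. It was within 100 bp of 26.7% of co-bound RBPJ summits (26.1 to 27.3) and 11.5% of RBPJ-only summits (11.1 to 11.9), an odds ratio of 2.80 (2.66 to 2.94), against 3.00% of genome windows. At distal sites the shares were 30.4% and 15.6%, and at promoters 5.06% and 2.56%. Around SOX2 summits the AP-1 motif was at 30.8% of co-bound and 31.2% of SOX2-only summits (odds ratio 0.979, 0.937 to 1.02, p = 0.346 in Fisher's exact test). Within bins of fold it was 0.879 (0.840 to 0.920), below 1. At distal sites it was 1.12 (1.07 to 1.17), but 1.01 (0.966 to 1.06) within bins of fold, and within 50 bp of the summit it was 0.922. Motifs of TEAD (ACATTCC) and RUNX (TGTGGTTT) were also more frequent at co-bound than at RBPJ-only RBPJ summits, at 6.05% against 3.36% and at 4.50% against 1.56%, with 3.25% and 1.81% of genome windows. The opposite held for the SP/KLF motif (GGGGCGGGG), at 3.35% against 7.07%, and for the CTCF motif, at 0.634% against 2.58%, with 0.286% and 0.0714% of genome windows. At distal sites the CTCF shares were 0.650% and 3.49%. Around SOX2 summits the TEAD motif was at 6.74% of co-bound and 6.91% of SOX2-only summits, and RUNX at 5.31% and 6.88%. The SP/KLF shares there were 3.14% and 1.03%, and the CTCF shares 0.582% and 0.637%. At promoters the odds ratios against RBPJ-only summits had intervals reaching 1 for TEAD (0.907 to 1.69) and RUNX (0.996 to 2.50). Within bins of fold the RUNX interval was 1.08 to 2.75.

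**Figure D4:**
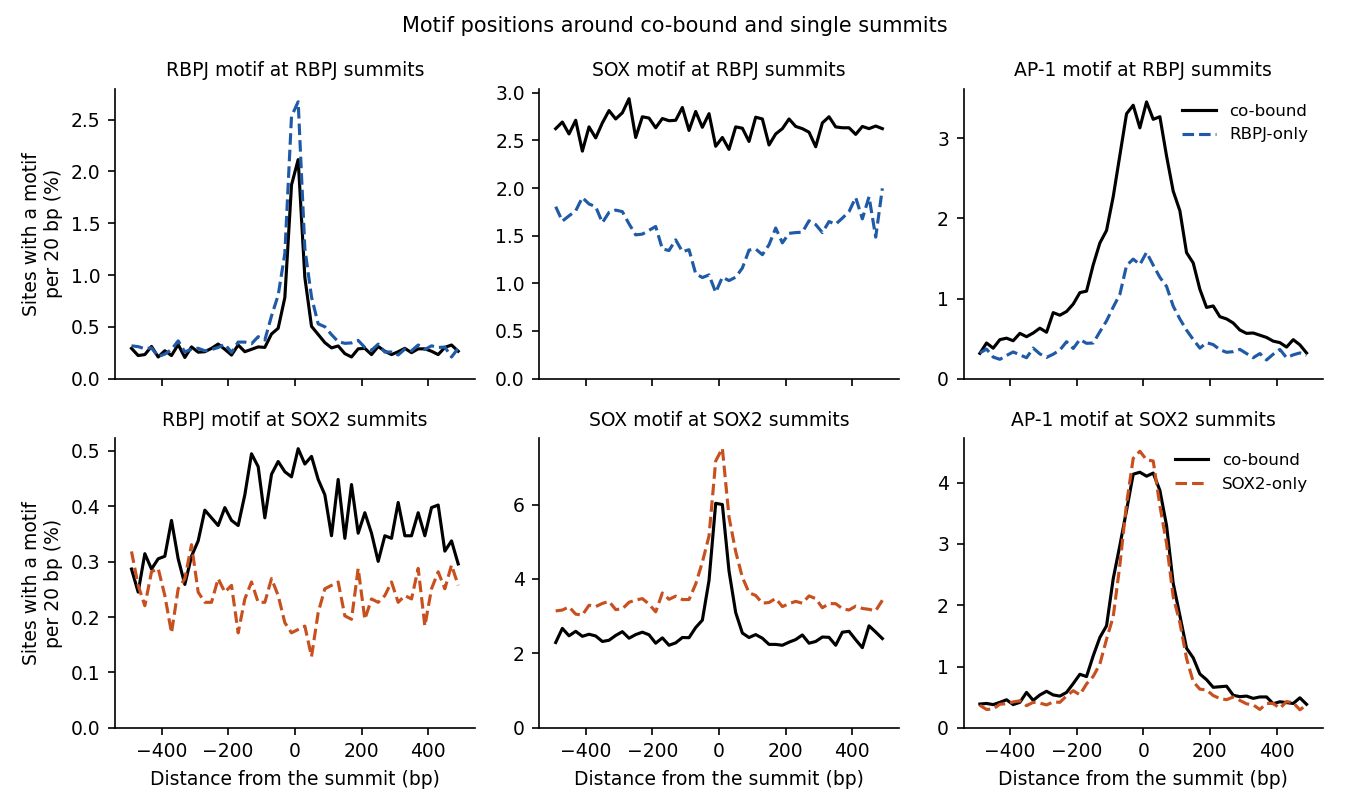
Share of sites with a motif start per 20 bp (%) against the distance from the summit in bp, for RBPJ summits (upper row) and SOX2 summits (lower row), co-bound (solid) and single (dashed). The RBPJ motif peaked at RBPJ summits (2.11% and 2.67%) and the SOX motif at SOX2 summits (6.03% and 7.51%), whereas around co-bound RBPJ summits the SOX motif stayed between 2.39% and 2.94%.

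Where the summits of a pair could be told apart, each motif sat with its own factor. In the 9778 pairs more than 100 bp apart, the RBPJ motif was within 50 bp of 7.27% of RBPJ summits and 0.992% of the SOX2 summits of the same pairs. The SOX motif was within 50 bp of 6.95% of RBPJ and 21.6% of SOX2 summits, and its longer form of 0.910% and 8.11%. AP-1 leaned to the SOX2 summit, with 9.39% and 15.1%. Each of these differences was past the threshold in an exact McNemar test over pairs. The reversed RBPJ letters did not pass (1.33% and 1.18%, adjusted p = 0.441 in the exact test), and the reversed SOX letters leaned to the SOX2 summit too (7.52% and 10.6%).

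Most pairs held neither motif. Motifs were counted within 100 bp of either summit of a pair. Of all pairs, 59.0% (58.4 to 59.7) had neither an RBPJ nor a SOX motif there. The SOX motif without the RBPJ motif was in 32.0%, the reverse in 5.56%, and both motifs were in 3.40% (3.16 to 3.65). At promoters 72.4% had neither. AP-1 was in 37.1% of pairs, 42.0% of distal and 8.15% of promoter pairs, and 37.7% had none of the 3. A match is a description of the letters and not a bound site, and no match says only that these letters were not in the window.

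The spacing between the motifs was described without a test. Co-bound sites held 461 pairs of an RBPJ and a SOX motif, of which 233 (50.5%) were on the same strand, with a median gap of 46 bp. In RBPJ-only sites 387 such pairs had a median gap of 43 bp and 51.2% were on the same strand. The most frequent single arrangement in co-bound sites, a SOX motif on the same strand overlapping the RBPJ motif by 2 bases on its downstream side, occurred 12 times. It is an arrangement in which the letters of the motifs overlap, as AA ends one and begins the other. With gaps counted in bins of 10 bp by side and strand, the fullest bin in co-bound sites was a SOX motif 0 to 9 bp downstream on the same strand, with 24 motif pairs, and the next was 0 to 9 bp upstream on the opposite strand, with 17. In RBPJ-only sites these bins held 6 and 11, and the fullest bin there, 10 to 19 bp upstream on the opposite strand, held 16. The bins were named after their counts were seen. Overlapping motif pairs of any arrangement numbered 15 of 461 in co-bound and 16 of 387 in RBPJ-only sites. Pairs of RBPJ motifs facing each other 15 to 17 bp apart are the arrangement known for paired NOTCH complexes. They were found in 1 of 1729 co-bound sites with an RBPJ motif and in 1 of 2651 RBPJ-only sites. Both motifs had to match the listed letters exactly and lie within 100 bp of the RBPJ summit. Pairs with a less exact partner could not be counted, so these counts do not show how common paired sites were.

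The peak lists of the other conditions are independent of the rule, and they separated the classes. In resistant cells in which NOTCH1 signal was restored (MB157R iN1-ICD), RBPJ was called under 500 bp away at 67.2% of co-bound RBPJ sites (66.5 to 67.8) and 46.8% of RBPJ-only sites (46.2 to 47.5), an odds ratio of 2.32 (2.24 to 2.41). In parental cells the order was the opposite: RBPJ was called in MB157 iEV at 22.6% of co-bound and 29.3% of RBPJ-only sites (odds ratio 0.703, 0.674 to 0.733), and in MB157 iSOX2 at 29.0% and 38.7% (0.647, 0.622 to 0.672). The parental order held at distal sites and was reversed at promoters. At promoters co-bound RBPJ sites were called in MB157 iEV more often, at 57.0% against 46.5% (odds ratio 1.53, 1.40 to 1.66), and at distal sites less often, at 16.7% against 21.5% (0.729, 0.691 to 0.769). Within bins of fold the promoter odds ratio was 1.06 (0.966 to 1.16), and the distal one 0.480. MB157 iEV RBPJ had 25243 summits, MB157 iSOX2 RBPJ 34521 and MB157R iN1-ICD RBPJ 37297, so the shares of different lists are not to be compared with each other, only the classes within a list.

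Put together, RBPJ sites called again in MB157R iN1-ICD and in neither parental list made up 40.3% of co-bound sites (39.7 to 41.0) and 19.4% of RBPJ-only sites (18.9 to 19.9). Sites called in all 3 other RBPJ lists had overlapping intervals in both classes, at 16.9% (16.4 to 17.4) and 17.2% (16.7 to 17.7), and sites called in none of them were less common among co-bound ones, at 27.2% against 36.4%.

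SOX2 in the parental cell background was measured through the HA tag. HA-SOX2 in MB157 iSOX2, the longest list with 108203 summits, was called at 37.6% of co-bound RBPJ sites (37.0 to 38.3) and 19.0% of RBPJ-only sites (18.6 to 19.5), an odds ratio of 2.56 (2.46 to 2.67). At promoters the shares were 61.4% and 28.3%. Among SOX2 sites the difference was smaller, with 37.9% of co-bound (37.3 to 38.5) and 30.6% of SOX2-only sites (29.9 to 31.3). The odds ratio was 1.39 (1.33 to 1.45), and 1.08 with co-bound taken as under 100 bp. Within bins of fold it was 1.27 (1.21 to 1.32) over all sites and 1.05 (1.00 to 1.10) at distal sites. The HA control, with 77 summits, was near 33 co-bound and 13 RBPJ-only RBPJ sites and near 36 co-bound and 18 SOX2-only SOX2 sites, and leaving those out gave co-bound shares of 46.3% and 57.0%.

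Few SOX2 sites were called again in MB157R iN1-ICD, whose SOX2 list had 323 summits. Of those that were, 243 were co-bound, which is 1.12% of co-bound sites (0.987 to 1.27), and 59 were SOX2-only, or 0.361% (0.275 to 0.466). The odds ratio was 3.13 (2.36 to 4.17), and 2.09 (1.54 to 2.82) within bins of fold. The 243 co-bound sites had a median SOX2 fold of 18.8, against 5.72 for the co-bound sites not called again, and the longer SOX motif was at 22.6% of them against 9.40%. The 59 SOX2-only sites had a median fold of 5.24 against 4.85. Promoters held 13 of the 243 and 0 of the 59. Of the 2864 SOX2-high pairs 146 were called again (5.10%, 4.32 to 5.97), and of the 2591 RBPJ-high pairs 3 were (0.116%, 0.0239 to 0.338). These groups were formed by fold, so their shares describe what goes with fold and are no test.

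**Figure D5:**
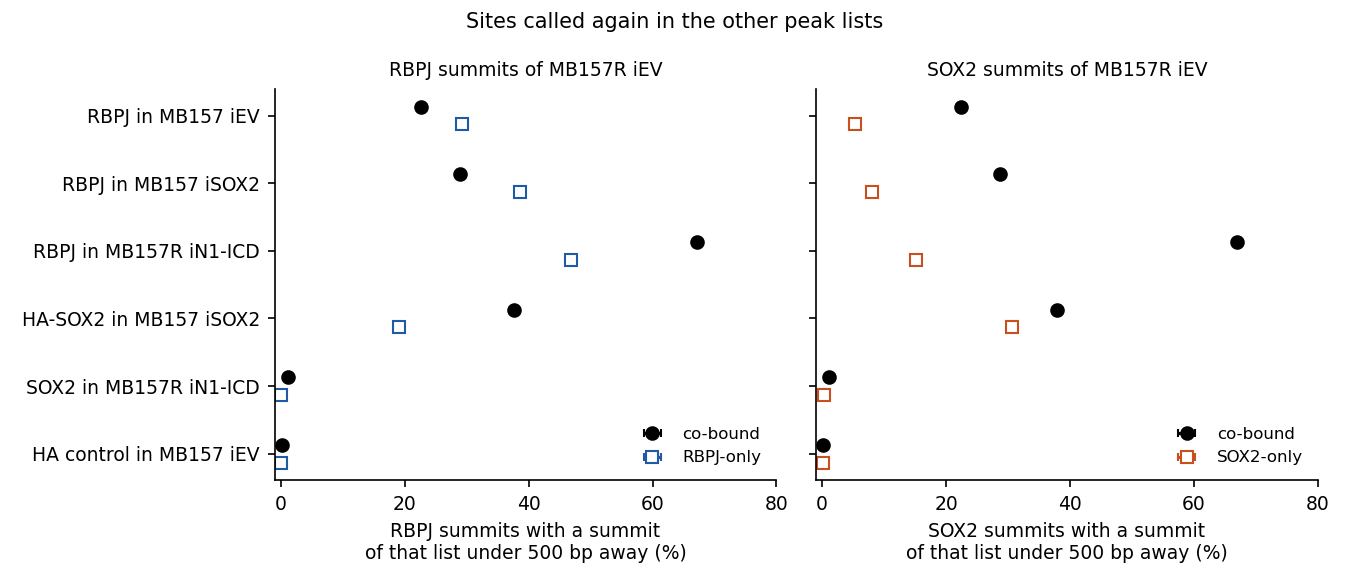
Share of RBPJ (left) and SOX2 (right) summits of MB157R iEV with a summit of each other list under 500 bp away (%), for co-bound sites (filled circles) and single sites (open squares), with 95% binomial intervals mostly narrower than the symbols. RBPJ with iN1-ICD was at 67.2% of co-bound against 46.8% of RBPJ-only sites, while RBPJ in MB157 iEV was at 22.6% against 29.3%.

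Turning to genes, a protein-coding promoter was counted as co-bound when a co-bound summit lay within 1 kb of its TSS. This held for 3703 of 19970 genes (18.5%). Another 7064 (35.4%) had RBPJ alone, 1.28% SOX2 alone, 472 (2.36%) both at 500 bp or more, and 8475 (42.4%) neither. Gene lists are described by their counts beside these shares. Expression was not used here, and nothing is called particular to a list from its count.

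The largest co-bound share was among genes of the Hippo pathway and its targets, with 10 of 20. They were the targets CCN1, CCN2 and ANKRD1, the coactivator gene YAP1, the kinase gene LATS1 with its partner SAV1, and AJUBA, AMOTL1, VGLL3 and VGLL4. At the AJUBA promoter, of a LIM protein that binds LATS kinases, the folds were 16.97 for RBPJ and 12.5 for SOX2. The AP-1 family had 8 of 20: JUN, JUNB, FOS, FOSL1, FOSL2, ATF2, ATF4 and MAF. The JUN promoter peak pair lay 19 bp apart at chr1:58781474-58785967 with folds of 20.8 and 5.61. ETS family genes had 9 of 27, among them EHF, ETS2, ETV1 and ETV6, and at EHF, an epithelial ETS factor gene, the SOX2 fold of 10.2 was above the RBPJ fold of 5.56. Kinases of the Src family and targets of dasatinib had 6 of 18, with FYN (24.8 and 3.60) and EPHA2 (16.2 and 6.16) highest in RBPJ fold.

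Of the receptors, ligands and modulators of the NOTCH pathway, 9 of 41 had a co-bound promoter and 18 had RBPJ alone, where the backgrounds were 18.5% and 35.4%. The 9 include the sheddase genes ADAM10 and ADAM17, the gamma-secretase genes NCSTN and APH1A, and the coactivator genes MAML1 and MAML2. They also include NOTCH1 itself and FBXW7, which codes for the ligase that marks the intracellular domain for degradation. Apart from NOTCH1 (15.04), the SOX2 folds at these promoters were low, from 3.09 (APH1A) to 4.43 (MAML2). The median SOX2 fold was 4.39 at all co-bound promoter summits and 6.06 at co-bound distal summits. Canonical target genes had 6 of 24 (CCND1, HES1, HES6, ID1, ID3 and SOX9), and 13 of 24 within 5 kb, where the background was 25.8%. Of these genes 16 of 24 were the nearest within 50 kb of a co-bound site, against 37.1% of all genes. Such counts were not limited to this list. Within 5 kb the AP-1 and Hippo lists had 11 of 20 each, and ribosomal protein genes 27 of 75. As nearest genes these lists had 15 of 20, 16 of 20 and 28 of 75.

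Ribosomal protein genes, a housekeeping list, had 25 co-bound promoters of 75 and 40 with RBPJ alone, and RPL39 had the highest RBPJ fold among them, at 68.0, over a SOX2 fold of 3.72. Lists of cell identity had co-bound shares near the 18.5% of all genes. EMT and mesenchymal genes had 5 of 25 (20%: CDH2, FN1, ITGB1, SNAI2 and TGFBR2), and the SOX family 4 of 19 (21.1%). Stem cell genes had 5 of 20 (25%) and luminal genes 3 of 16 (18.8%). Basal genes had 4 of 16 (25%) and epithelial genes 3 of 20 (15%). SOX2-only promoters, 1.28% of all genes, numbered 4 of 16 in the basal list (KRT5, KRT6A, LAMB3 and TP63), 4 of 20 in the epithelial list (CDH3, CLDN4, ELF3 and ESRP1) and 2 of 20 in the stem cell list (ALDH1A1 and SALL4). The ESRP1 promoter, of an epithelial splicing regulator, had the highest SOX2 fold of these, at 14.9. Of 15 genes each specific to liver, blood cells and muscle, none had a co-bound promoter, 1 blood cell gene had RBPJ alone, and 1 had both factors at 500 bp or more.

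Single loci show how the classes lie side by side. Within 50 kb of the NOTCH1 start, 6 co-bound, 14 RBPJ-only and 2 SOX2-only sites had it as their nearest gene. The RBPJ summit of fold 45.4 in intron 1, 1.45 kb from the TSS, was paired with a SOX2 summit of fold 4.30. The upstream pair had folds of 10.4 and 15.04, and another pair 26.3 kb upstream folds of 5.79 and 12.0. At this locus the highest RBPJ fold and the highest SOX2 folds were at different pairs.

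HES1, a transcriptional repressor gene and NOTCH target, had 6 co-bound sites. The strongest RBPJ summit (39.4) lay 1.24 kb upstream and 369 bp from a SOX2 summit of fold 5.36, in an RBPJ region at chr3:194134444-194137798 that ran across the start. Pairs 5.10 kb upstream (15.8 and 11.7) and 46.5 kb upstream (14.2 and 11.9) had more even folds. HES4 had its strongest RBPJ summit (54.8) at the promoter without SOX2, 4158 bp from the nearest SOX2 summit, and HEY2 had 1 RBPJ-only site of fold 50.5. HEY1 had a co-bound pair 16.4 kb upstream with folds of 42.1 and 7.15 and RBPJ alone at its promoter (21.97).

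NRARP codes for a feedback inhibitor of NOTCH signalling. Its RBPJ summit of fold 111.0 in intron 19 of EXD3, 9.36 kb upstream, was paired with a SOX2 summit of fold 3.53. Its promoter instead carried the SOX2-only site with the highest fold of all (52.3, 177 fragments), 1028 bp from an RBPJ summit of fold 9.41. That peak, at chr9:137302201-137302420, was not called in any of the other 6 lists. SOX2-only peaks had a median width of 339 bp, above the width of this one.

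Other panel genes had co-bound sites away from their promoters. CDH1, which codes for E-cadherin, had none within 1 kb but was the nearest gene to 6, of which 5 were in its intron 2 (RBPJ folds 3.94 to 10.2) and 1 within CDH3. ITGA6, an integrin subunit of basal and stem-like mammary cells, had 8, with 6 in intron 1, and the pair 14.8 kb from the TSS lay 5 bp apart with folds of 9.61 and 19.6. CDKN2B, a cell cycle inhibitor gene, had an RBPJ fold of 54.6 over a SOX2 fold of 2.80 at its promoter, and of 13.8 over 25.1 at a pair 43.5 kb upstream. The SOX2 gene itself had a co-bound promoter with folds of 5.32 and 4.10, while RBPJ had none at its own promoter and 1 pair 34.1 kb into the gene (7.44 and 9.80). In all, 14 of 30 panel genes had a co-bound promoter and 26 were the nearest gene to a co-bound site.

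Some genes gathered many co-bound sites. Of all genes 37.1% were nearest to at least 1 and 1.52% to 5 or more. Among the 7 genes with 10 or more, named here after their counts were seen, were the unnamed gene ENSG00000258989 (13) and AFAP1, ETS2, EVA1A, ITGB6 and SMAD3, the TGF-beta signal transducer gene (10 each). The RBPJ-only count was 1 to 9 at these named genes. Co-bound RBPJ sites had another co-bound site within 12.5 kb in 43.5% of cases (42.8 to 44.1). The share with a neighbour of the same class was 53.2% for RBPJ-only and 27.1% for SOX2-only sites, which also differ in number and in their closeness to a TSS.

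Among the 8 strongest co-bound sites, by the smaller of their folds, only that of C15orf62 was at a promoter. Promoters held 14.6% of all co-bound RBPJ summits. The median SOX2 fold was lower at co-bound promoter summits than at co-bound distal ones (4.39 and 6.06), which bears on this ranking. Near ARHGEF4, a RhoGEF gene, a pair 27.8 kb upstream at chr2:130807606-130809517 had folds of 39.4 and 28.4. It was called again in both MB157R iN1-ICD lists and in no MB157 list. The CCL22 pair (39.7 and 24.7), near a chemokine gene, was called in all 3 other RBPJ lists, and so were the pairs of VGLL4 (21.99 and 22.9), EIF2AK1 (21.9 and 23.1) and C15orf62 (19.9 and 26.6). The ANGPT2 pair (28.4 and 35.5), which lies in intron 12 of MCPH1, was called as RBPJ only in MB157R iN1-ICD and as HA-SOX2 in MB157 iSOX2. TSPAN2 (21.4 and 21.1) and CRADD (24.4 and 19.3) complete the 8. All 8 were called as RBPJ in MB157R iN1-ICD.

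Of the 8 RBPJ-only sites of highest fold, 5 were at promoters, where 31.2% of all RBPJ-only summits lay. They were NAPG (92.5), CCDC102B (77.6), POM121 (75.8), RASEF (67.6) and STIM1 (65.7), whose product senses calcium in the endoplasmic reticulum. All 8 were called again in MB157R iN1-ICD and 7 in both parental lists, the exception being the UPK3BL2 site (109.99). UPK3BL2 and POM121 have near-identical copies in the genome, so reads at these may be split or misplaced. The 8 SOX2-only sites of highest fold, at NRARP, PLA2G4C (39.2), SLC5A12 (33.7), ADGRF5 (29.7), TTBK2 (27.5), BUB1 (26.9), RUFY4 (26.4) and RNF217 (24.7), all held a SOX motif. Only that of NRARP was at a promoter, where 5.16% of all SOX2-only summits lay. Of the 8, 4 were called as HA-SOX2 in MB157 iSOX2 and 2 again as SOX2 in MB157R iN1-ICD.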

How the data were processed

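ChIP-seq peaks of RBPJ and SOX2 in MB157R iEV cells were compared with each other and with 6 further peak lists of the series. The authors aligned reads to hg38 with BWA and called peaks with MACS2 against input on the pooled libraries of each group (versions are not given in the sources used here). The deposited lists give positions, a summit offset, a fold ratio over local background at the summit, −log10 p-values and −log10 q-values, and a display score. Read depth per library was not analysed here. The whole number of fragments at a summit was recovered by searching for the number that, with the deposited fold, gives back the deposited −log10 p-value under a Poisson model. It was found to within 0.1% of that value for 99.9% of RBPJ and 100.0% of SOX2 summits, with a lowest value of 8.

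Summits on chromosomes 1 to 22 and X were used. Positions came from GENCODE 44. A promoter is within 1 kb of the outermost 5′ start of a protein-coding gene, so alternative promoters count as distal, and introns and exons are those of canonical transcripts. Motifs were searched on both strands within 100 bp of summits. Classes were compared with a two-sided Fisher's exact test, Woolf intervals and Benjamini-Hochberg adjustment, and within 5 fold bins by the Mantel-Haenszel odds ratio. Shares have exact binomial intervals of 95%. The scripts were tested on simulated data. Alternatives changed the distance, the peak threshold, the window, the promoter width and the sites taken. Named are 30 panel genes, the 8 sites of highest fold per class (the smaller fold for co-bound sites, at most 1 per gene, singles not overlapped by the other factor), the 6 strongest pairs at most 5 bp apart, and up to 4 members of highest fold per gene list, besides members named to spell out a count. Some items that these rules name are not reported here. Members and lists were chosen with earlier results of these data known. Intervals and tests used scipy 1.17.1, and tables numpy 2.4.6 with pandas 2.3.3 under Python 3.11.15. Sequences were read with samtools 1.23.1 through pysam 0.24.0 and scanned with numba 0.67.0. Plots were drawn in matplotlib 3.10.9.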

Additional observations from a re-analysis of the deposited data

How the results depend on the processing

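No paired analysis was possible because peaks had been called on pooled libraries, and for the same reason no replicate could be left out. The share of RBPJ and of SOX2 summits that were co-bound followed the rule for pairing. It was 25.0% and 30.7% under 100 bp, 39.5% and 48.5% under 250 bp, 51.3% and 62.6% under 1000 bp, and 49.1% and 62.2% by overlap of regions. Restricting both lists to −log10 q values of 5 or more gave 39.9% and 48.2%, lists of equal length 50.3% and 50.5%, and distal peaks 51.6% and 54.1%. Of 62 alternative odds ratios over 14 comparisons, 57 kept their direction and their side of the threshold, and 13 comparisons kept both under every alternative run. The exception among these runs was the AP-1 motif at co-bound against SOX2-only summits. Its odds ratio passed the threshold below 1 with a 50 bp window (0.922), with singles not overlapped (0.877) and under the stricter q threshold (0.929), and was above 1 at distal sites (1.12) and with co-bound under 100 bp (1.29). Within bins of fold it was 0.879 over all sites and 1.01 at distal sites. The cause was not tested. The promoter odds ratio against SOX2-only sites kept its direction but ranged from 1.17 to 9.85. For sites called again in other lists, the alternatives counted above held no split by promoter and no bins of fold. At promoters the odds ratios for RBPJ in MB157 iEV and MB157 iSOX2 were reversed, at 1.53 and 1.52 against 0.703 and 0.647 over all sites. That for HA-SOX2 against SOX2-only sites was 1.05 at distal sites within bins of fold. Summits rested on a median of 18 fragments for RBPJ and 19 for SOX2, and whether weak partners went uncalled was not tested.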
